A study of Danio rerio with 2 samples.

Results

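Collagen chains are folded, modified and trimmed by a dedicated set of proteins, and 10 genes of that set were followed across the cell types of the adult zebrafish jaw joint: *serpinh1a*, *serpinh1b*, *crtap*, *fkbp10b*, *p4ha1b*, *plod1a*, *plod2*, *pcolcea*, *bmp1a* and *sparc*. They were taken by symbol from the deposited feature list, where they are 10 of 36355 features, and each had counts in both libraries. The animals were 3 months old and carried both the *sox10:DsRed* and the *trps1:eGFP* transgene, and 50 micro-dissected joints were pooled, dissociated with enzymes and sorted into a *sox10:DsRed*-enriched library (DsRed-positive cells, with or without eGFP) and a *trps1:eGFP*-enriched library (eGFP-positive cells). Both groups therefore share age, tissue and both transgenes, and each was enriched for cells positive for its reporter, so cells without it are under-represented. There is 1 library per sort, so no significance test was made, and every interval covers counting error at 95% only.

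In the endoplasmic reticulum, prolyl 4-hydroxylases stabilise the collagen triple helix, lysyl hydroxylases prepare lysines for cross-links, and a complex of CRTAP, a prolyl 3-hydroxylase and cyclophilin B modifies and isomerises prolines. HSP47, the product of *SERPINH1* in mammals, binds the folded triple helix, and the isomerase FKBP65, the product of *FKBP10*, acts beside it. After secretion, proteinases of the BMP1 family remove the C-propeptide with the help of PCOLCE proteins, and SPARC binds collagen in the matrix. In humans, loss of many of these genes causes brittle bone disease.

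In the *sox10:DsRed*-enriched library 462 barcodes carried 1073482 unique molecular identifiers (UMIs, each marking 1 captured transcript), and in the *trps1:eGFP*-enriched library 4876 barcodes carried 17424489 UMIs. Median depth was 1281.5 and 3054.5 UMIs per barcode. After limits on genes and mitochondrial UMIs, 4161 cells were kept (242 and 3919), and 3770 of them formed 17 clusters once epithelial-like and endothelial-like cells had been set apart. The same 16 barcode sequences occurred in both libraries, among them 12 kept cells. Clusters were rebuilt with the 10 genes and their pathway left out of the clustering, and cell type names rest on separate markers, so shares may differ from those of the study. The fibrillar collagen genes were not left out, and *col2a1a* served as a chondrocyte marker.

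The labelled tissue was checked by those markers. The osteoblast-like cluster (192 cells, 177 from the *trps1:eGFP*-enriched library) met 6 of its markers, with *bglap* at 35496 CPM (the UMIs of a gene per 1000000 UMIs, summed over the cells of a cluster). The ligamentocyte-like cluster (74 cells, all from the *trps1:eGFP*-enriched library) met 5, with *thbs4a* at 2210 CPM, *tnmd* at 1410 CPM and *scxa* at 123 CPM. Chondrocyte-like cells formed 8_0 (80 cells, 77 from the *sox10:DsRed*-enriched library) and 8_1 (76 cells, all from that library), with *mia* at 6585 and 3684 CPM, *ihha* at 449 and 26.5 CPM, and *ucmab* at 828 and 1234 CPM. Further clusters were superficial chondrocyte-like (113 cells), pre-osteoblast-like (57 cells), glia-like (48 cells), and 10 clusters of connective tissue and dermal cells (3130 cells, 3125 of them from the *trps1:eGFP*-enriched library) that served together as the reference. Of those 10, 2 were dermal fibroblast-like and the other 8 carry numbers because too few markers named them.

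No single profile covered the 10 genes. Osteoblast-like cells had the highest *sparc*, *p4ha1b* and *serpinh1a*, ligamentocyte-like cells the highest *fkbp10b* and *plod1a*, chondrocyte-like cells the highest *plod2* and, with both libraries pooled, *crtap*, and connective tissue clusters the highest *serpinh1b*, *pcolcea* and *bmp1a*. Of the UMIs of the 10 genes in clustered cells, *sparc* held 74.2%. When clusters were put in order of CPM, the intervals of neighbours were apart at 12 of 16 steps for *sparc*, 4 for *serpinh1b*, 4 for *pcolcea* and 1 for *plod2*, and at 0 steps for the other 6 genes. For those 6 only clusters far apart in the order could be told from each other.

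**Figure D1:**
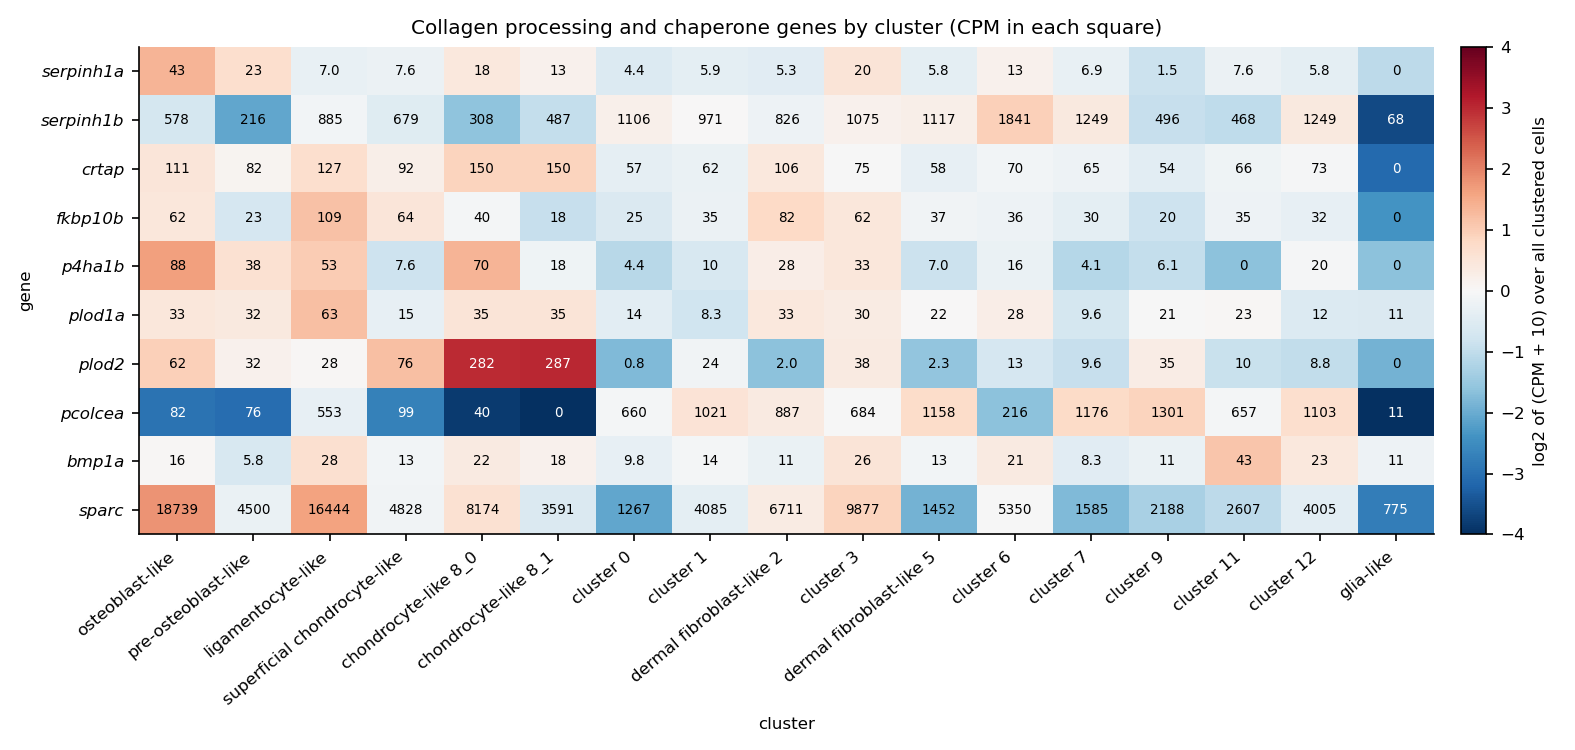
Level of each of the 10 genes (vertical axis) in each of 17 clusters (horizontal axis), with the CPM printed in each square and the colour giving log2 of CPM plus 10 relative to all clustered cells. The chondrocyte-like clusters stand out for *plod2* (282 and 287 CPM), the osteoblast-like and ligamentocyte-like clusters for *sparc* (18739 and 16444 CPM), and the skeletal clusters are blue for *pcolcea*.

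*serpinh1b* (feature LL0000024517, 15492 UMIs) and *serpinh1a* (LL0000024516, 214 UMIs) are the zebrafish copies of the HSP47 gene. *serpinh1b* was highest in cluster 6, a connective tissue cluster led by *fgl1* and *pcm1*, at 1841 CPM (1745 to 1941), and ranged from 468 to 1249 CPM in the other 9 connective tissue and dermal clusters. It was 885 CPM in ligamentocyte-like, 679 CPM in superficial chondrocyte-like, 578 CPM in osteoblast-like and 216 CPM in pre-osteoblast-like cells. The chondrocyte-like clusters stood at 308 CPM (8_0) and 487 CPM (8_1). Thus the CPM of the procollagen chaperone was lower in osteoblast-like and chondrocyte-like cells than in 8 of the 10 connective tissue and dermal clusters. The share of cells with a *serpinh1b* UMI, with each cell thinned to the same depth, gave another picture for osteoblast-like cells. It was 40.6% (33.6 to 47.9) there and 42.4% in the reference, whose clusters ran from 30.8% (cluster 9) to 59.1% (cluster 6). In 8_0 and 8_1 the share was lower, at 20.3% and 17.1%.

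Against the reference, where it stood at 1052 CPM, *serpinh1b* was 0.550 times as high in osteoblast-like cells (0.509 to 0.592) and 2.65-fold lower in chondrocyte-like cells. Within the *trps1:eGFP*-enriched library alone the osteoblast-like ratio was 0.580. In the osteoblast-like cluster it was 349.7 CPM in the *sox10:DsRed*-enriched and 610.3 CPM in the *trps1:eGFP*-enriched library, and in the pre-osteoblast-like cluster 247 and 199 CPM. The chondrocyte-like ratio compares cells of different libraries, so class and library cannot be told apart in it. Within the *sox10:DsRed*-enriched library *serpinh1b* was 408 CPM in chondrocyte-like and 305 CPM in osteoblast lineage-like cells (osteoblast-like and pre-osteoblast-like together). That ratio, 1.34 (1.02 to 1.75), was under 2-fold. With 10 CPM added its log2 was 0.41, below the median of 0.57 over all features. HSP47 is also a heat shock gene. The heat shock gene *hsp70l* was at 2960 CPM in cluster 6, 4850 CPM in cluster 1 and 133 CPM in 8_1, and 9 listed genes of dissociation stress summed to 12354 CPM in cluster 6, against a range of 3928 (8_1) to 45711 CPM (dermal fibroblast-like 5) over all clusters. Their part in the *serpinh1b* levels was not tested.

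The minor copy had another order. *serpinh1a* was 42.8 CPM (32.1 to 55.8) in osteoblast-like cells and 7.11 CPM in the reference, a ratio of 6.02 (4.20 to 8.57), with 54 UMIs behind the osteoblast-like value. Within the *trps1:eGFP*-enriched library the ratio was 5.19. It was 23.3 CPM in pre-osteoblast-like cells on 8 UMIs and 19.8 CPM in cluster 3, and at most 17.6 CPM in every other cluster. How many reads match both copies equally could not be read from the counts.

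Set beside its substrate, *serpinh1b* spread further. The 16 fibrillar collagen genes, matched by symbol, took 8.46% of all UMIs in osteoblast-like cells (84581 CPM), 6.24% in ligamentocyte-like cells (62423 CPM) and 1.15% in the reference (11506 CPM). Per 1000 fibrillar collagen UMIs, *serpinh1b* had 6.84 UMIs (6.35 to 7.35) in osteoblast-like cells, 14.2 (12.5 to 16.1) in ligamentocyte-like cells and 91.5 (89.8 to 93.2) in the reference. The cells with the most fibrillar collagen RNA thus had the least *serpinh1b* per collagen UMI.

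Between those ends lay 17.1 (13.4 to 21.5) in pre-osteoblast-like cells, 29.5 in 8_0, 53.1 in 8_1 and 83.7 in superficial chondrocyte-like cells. Among the connective tissue and dermal clusters the value ran from 33.4 in cluster 3, led by *ogna*, *itga11a* and *aspn*, to 319 (296 to 344) in cluster 7. With *sparc* left out, the other 9 genes together, *serpinh1b* among them, gave the same order of 4 classes. They had 12.7 UMIs per 1000 collagen UMIs in osteoblast-like cells, 29.7 in ligamentocyte-like cells, 102 in chondrocyte-like cells and 179 in the reference. In the reference *serpinh1b* (1052 CPM) and *pcolcea* (831 CPM) held most of that sum. The order of the sum is therefore not separate from that of *serpinh1b*. Collagen UMIs are the denominator of these values, so a cluster rich in collagen lies low wherever a gene does not keep step.

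**Figure D2:**
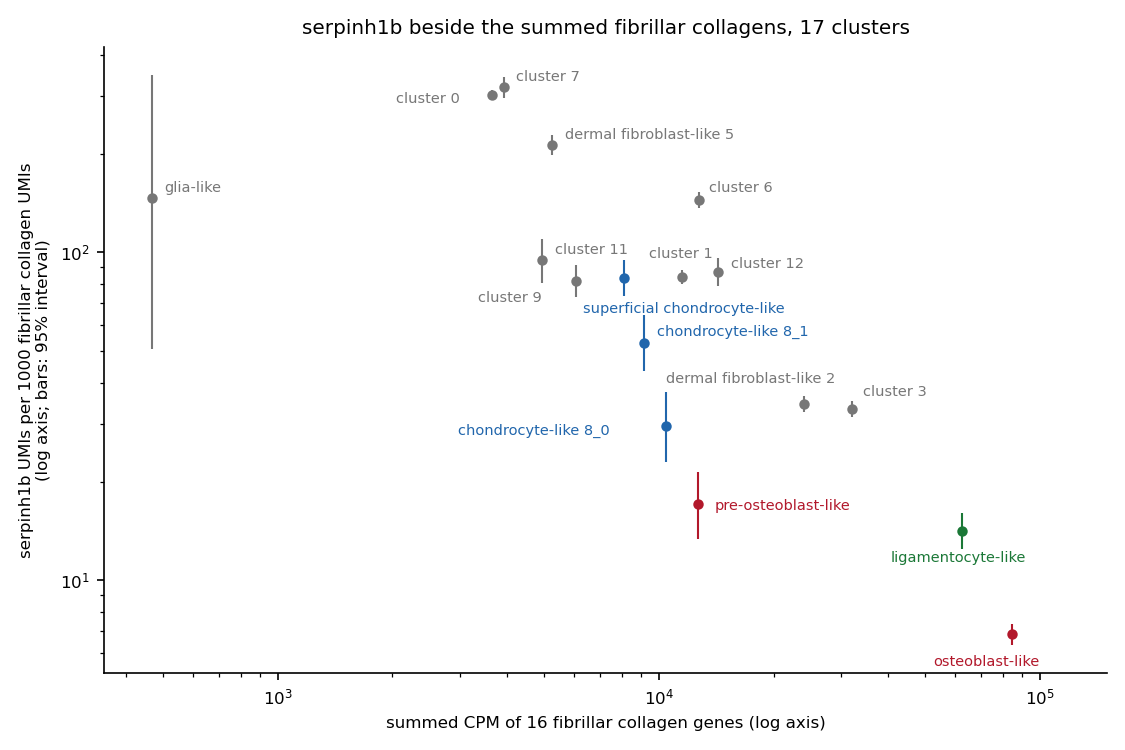
*serpinh1b* UMIs per 1000 fibrillar collagen UMIs (vertical log axis) against summed fibrillar collagen CPM (horizontal log axis), 1 point per cluster with a 95% counting interval. The osteoblast-like cluster lies lowest at 6.84 and the ligamentocyte-like cluster next at 14.2, while cluster 7 lies at 319, and since collagen UMIs enter both axes a downward slope is partly built in.

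*crtap* (LL0000007342, 1263 UMIs), whose product is the scaffold of the prolyl 3-hydroxylation complex, varied less than 3-fold among all clusters but the glia-like one. It was 149.7 CPM (104 to 209) in 8_0, 150.4 CPM (104 to 210) in 8_1, 127 CPM in ligamentocyte-like and 111 CPM in osteoblast-like cells, and 53.6 to 106 CPM in the connective tissue and dermal clusters. Relative to the reference (67.7 CPM) it was 2.22-fold higher in chondrocyte-like cells (1.70 to 2.84) and 1.64-fold in osteoblast-like cells (1.36 to 1.96). Class and library cannot be told apart in the chondrocyte-like ratio, since 153 of those 156 cells but few reference cells were from the *sox10:DsRed*-enriched library. In osteoblast-like cells *crtap* was 194 CPM (131 to 277) in the *sox10:DsRed*-enriched and 99.3 CPM in the *trps1:eGFP*-enriched library, so within the former it was not lower than in chondrocyte-like cells (148 CPM). Its partner *ppib*, which encodes cyclophilin B, was 1408 CPM in osteoblast-like, 1088 CPM in chondrocyte-like, 973 CPM in ligamentocyte-like and 769 CPM in reference cells. A prolyl 3-hydroxylase gene, *p3h2*, stood at 141 CPM in chondrocyte-like cells, against 2.71 CPM in the reference (52.2-fold) and 1.58 CPM in osteoblast-like cells. Whether its product acts in the *crtap* complex was not tested, and other prolyl 3-hydroxylase genes are not described here.

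*fkbp10b* (LL0000010369, 727 UMIs) was 109 CPM (74.2 to 155) in ligamentocyte-like cells on 31 UMIs, 81.9 CPM in dermal fibroblast-like 2, 63.6 CPM in superficial chondrocyte-like and 61.8 CPM in osteoblast-like cells. The ligamentocyte-like ratio to the reference (39.8 CPM) was 2.75 (1.85 to 3.95). In osteoblast-like cells it was 1.55 (1.21 to 1.98), under the 2-fold line used here. The related isomerase gene *fkbp9* was also higher in ligamentocyte-like cells (148 CPM, 2.75-fold), whereas *fkbp11* was higher in osteoblast-like cells (146 against 21.5 CPM, 6.78-fold).

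*p4ha1b* (LL0000021188, 376 UMIs) encodes a catalytic subunit of prolyl 4-hydroxylase and was highest in osteoblast-like cells. It was 87.9 CPM (72.3 to 106) there, 70.4 CPM in 8_0, 52.9 CPM in ligamentocyte-like and 37.9 CPM in pre-osteoblast-like cells, against 12.4 CPM in the reference. In 8_1 it was 17.7 CPM (4.82 to 45.3) on 4 UMIs, an interval that includes the reference. The ratios were 7.07 (5.48 to 9.11) for osteoblast-like, 4.25 (2.32 to 7.24; 15 UMIs) for ligamentocyte-like and 3.05 (1.58 to 5.37; 13 UMIs) for pre-osteoblast-like cells. Within the *trps1:eGFP*-enriched library the osteoblast-like ratio was 6.56.

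In cluster 11, led by *coch* and *grem1a*, *p4ha1b* had 0 UMIs, which allows up to 7.59 CPM, and in cluster 0 it stood at 4.35 CPM. Other reference clusters were higher, with cluster 3 at 32.9 CPM (23.5 to 44.8) and dermal fibroblast-like 2 at 27.7 CPM. The intervals of ligamentocyte-like (29.6 to 87.2) and pre-osteoblast-like cells (20.2 to 64.8) overlapped those of both clusters. Their ratios therefore do not set them apart from every reference cluster. The interval of osteoblast-like cells (72.3 to 106) lay above both. A UMI of *p4ha1b* was found in 26.6% of osteoblast-like cells and in 0.820% of epithelial-like cells, whose median depth was 5912 UMIs against 5306. The companion subunit *p4hb* was higher in osteoblast-like (315 against 152 CPM, 2.07-fold) and chondrocyte-like cells (452 CPM, 2.98-fold), and the alternative catalytic subunit *p4ha2* in ligamentocyte-like cells (187 CPM, 2.98-fold).

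*plod2* (LL0000022144, 438 UMIs) had the highest ratio to the reference of the 10 genes, in chondrocyte-like cells. Its mammalian product hydroxylates lysines of the collagen telopeptides, the step behind stiff pyridinoline cross-links of bone and cartilage. It was 287 CPM (222 to 366) in 8_1, 282 CPM (217 to 360) in 8_0, 76.3 CPM (51.5 to 109) in superficial chondrocyte-like and 61.8 CPM (48.9 to 77.1) in osteoblast-like cells. The 2 chondrocyte-like clusters overlapped each other and lay apart from all others.

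At the low end, *plod2* was 0.816 CPM in cluster 0 (3 UMIs in 998 cells), 1.98 CPM in dermal fibroblast-like 2 and 2.34 CPM in dermal fibroblast-like 5, yet 37.9 CPM in cluster 3 and 35.2 CPM in cluster 9. The connective tissue and dermal clusters were thus not uniform. Against the reference at 11.9 CPM, the ratio was 23.9 (18.6 to 30.5; 129 UMIs) for chondrocyte-like, 6.40 (4.16 to 9.54; 30 UMIs) for superficial chondrocyte-like and 5.18 (3.88 to 6.88) for osteoblast-like cells. For the last of these it was 4.76 within the *trps1:eGFP*-enriched library.

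Because the *sox10:DsRed*-enriched library gave 153 of 156 chondrocyte-like cells and the other library 3125 of 3130 reference cells, class and library cannot be told apart in that ratio. Osteoblast lineage-like cells were present in both libraries. Within the *sox10:DsRed*-enriched library *plod2* was 289 CPM in 153 chondrocyte-like cells and 69.9 CPM in 38 osteoblast lineage-like cells, a ratio of 4.14 (2.55 to 7.10). A UMI of *plod2* was found in 50.0% of 8_0 cells and 52.6% of 8_1 cells (17.7% and 28.9% when each cell was thinned to 1000 UMIs), against 0.273% of epithelial-like cells. The median depth was 2444.5 UMIs in 8_0, 2731 in 8_1 and 5912 in epithelial-like cells, so the higher share was in the shallower cells.

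*plod1a* (LL0000022143, 361 UMIs), whose mammalian counterpart hydroxylates lysines of the helix, was flatter. It was 63.4 CPM (37.6 to 100) in ligamentocyte-like cells, 35.4 CPM in 8_1, 35.2 CPM in 8_0 and 33.3 CPM in osteoblast-like cells, against 19.0 CPM in the reference. The ligamentocyte-like ratio was 3.33 (1.94 to 5.39; 18 UMIs). The remaining lysyl hydroxylase gene, *plod3*, was 53.0 CPM in chondrocyte-like cells (2.83-fold), and *colgalt2*, which encodes a galactosyltransferase acting on hydroxylysine, 92.7 CPM (5.56-fold).

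*pcolcea* (LL0000021449, 10845 UMIs) and its paralog *pcolceb*, which encode enhancers of C-propeptide removal, were divided between cell types. *pcolcea* was 1301 CPM (1215 to 1391) in cluster 9, led by *ctslb* and *acta2*, 1158 CPM in dermal fibroblast-like 5 and 553 CPM in ligamentocyte-like cells. It was 99.2 CPM in superficial chondrocyte-like, 81.6 CPM (66.6 to 99.0) in osteoblast-like and 75.8 CPM in pre-osteoblast-like cells, and 0 UMIs were found in 76 cells of 8_1, which allows up to 13.3 CPM. Against the reference at 831 CPM it was 10.2-fold lower in osteoblast-like, 8.38-fold lower in superficial chondrocyte-like and 41.9-fold lower in chondrocyte-like cells (9 UMIs).

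*pcolceb* ran the other way in bone and cartilage. It was 1090.2 CPM (1033 to 1149) in osteoblast-like cells, 487 CPM in 8_1, 427 CPM in 8_0 and 315 CPM in pre-osteoblast-like cells, against 53.0 CPM in the reference. The ratios were 20.6 for osteoblast-like, 8.61 for chondrocyte-like and 5.93 for pre-osteoblast-like cells. The reference clusters differed, with *pcolceb* at 218 CPM in cluster 3 and 8.70 CPM in cluster 0. Ligamentocyte-like cells were at 98.7 CPM. In superficial chondrocyte-like cells both paralogs were low, with *pcolceb* at 2.54 CPM on 1 UMI.

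Another relative, *pcolce2b*, was 585 CPM in ligamentocyte-like cells, 14.6-fold over the reference. Over the 17 clusters, which share libraries, Pearson's r of log2 levels of *pcolcea* and *pcolceb* was -0.45. In the osteoblast-like cluster *pcolceb* was 1328 CPM in the *sox10:DsRed*-enriched and 1057 CPM in the *trps1:eGFP*-enriched library, and *pcolcea* 104 and 78.5 CPM, so the split was present in both. The 366 epithelial-like cells held *pcolcea* at 31.5 CPM and *pcolceb* at 71.3 CPM.

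Cells of each class were also sorted by which paralog they held. With each cell thinned to 1000 UMIs, 94 of 192 osteoblast-like cells (49.0%, 41.7 to 56.3) had a UMI of only *pcolceb*, 8 of only *pcolcea* (4.17%) and 6 of both. Of 3127 reference cells, 1280 had only *pcolcea* (40.9%), 72 only *pcolceb* (2.30%) and 53 both. Of 155 chondrocyte-like cells, 53 had only *pcolceb* (34.2%) and 1 only *pcolcea*. Without thinning, 36 osteoblast-like cells held both, 121 only *pcolceb* and 10 only *pcolcea*, and in the reference 270 held both, 91 only *pcolceb* and 1969 only *pcolcea*. The paralogs thus differed in level between classes. Without thinning, most osteoblast-like cells with *pcolcea* also had *pcolceb*. Most osteoblast-like cells had *pcolceb* in any case, so this overlap shows no pairing of the 2 genes. In the reference most cells with *pcolcea* had no *pcolceb*. Few reference cells had *pcolceb* in any case, so this shows no exclusion between the 2 genes. Cluster 3 of the reference was more mixed. Without thinning, 71 of its cells held both, 45 only *pcolceb* and 89 only *pcolcea*.

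**Figure D3:**
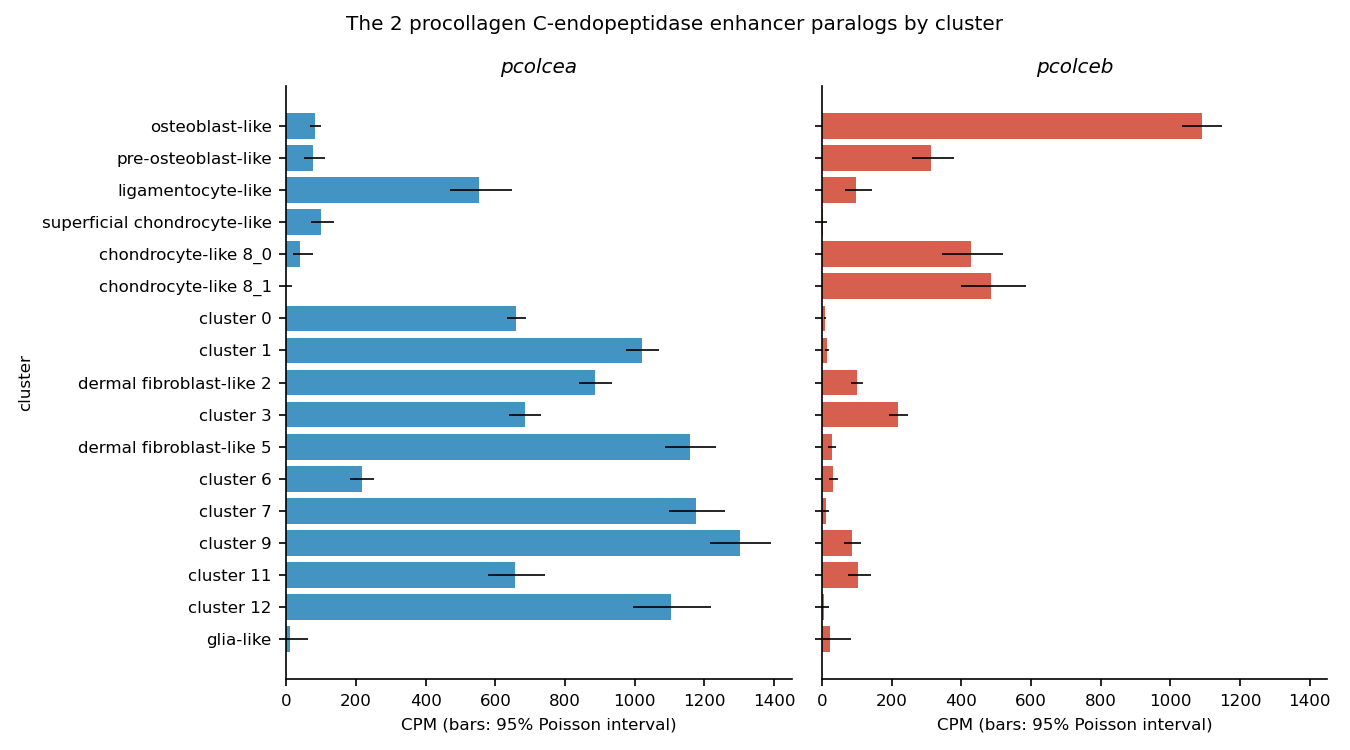
*pcolcea* and *pcolceb* in each cluster, in CPM with 95% counting intervals. Osteoblast-like cells stand at 81.6 CPM for *pcolcea* and 1090.2 CPM for *pcolceb*, while cluster 0 stands at 660.4 and 8.70 CPM. Cluster 3 stands at 684 and 218 CPM.

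*bmp1a* (LL0000001943, 272 UMIs), a gene of the proteinase family that PCOLCE proteins enhance, was low in every cluster. It was highest in cluster 11 at 43.0 CPM (25.0 to 68.8; 17 UMIs) and 28.2 CPM in ligamentocyte-like cells, and between 5.83 and 25.5 CPM in the rest. Osteoblast-like cells at 15.8 CPM did not differ beyond counting error from the reference at 14.5 CPM, the interval of the ratio running from 0.653 to 1.75. The related gene *bmp1b* was at least 2-fold higher in ligamentocyte-like cells than in the reference, with 10 CPM added to both sides. Among the proteinases that remove the other propeptide, *adamts2* was 88.1 CPM in ligamentocyte-like cells (3.03-fold) and *adamts3* 37.5 CPM in chondrocyte-like cells (5.10-fold).

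*sparc* (LL0000029233, 92005 UMIs) followed fibrillar collagen most closely. It was 18739 CPM (18501 to 18979) in osteoblast-like and 16444 CPM (15975 to 16923) in ligamentocyte-like cells, then 9877 CPM in cluster 3, 8174 CPM in 8_0 and 6711 CPM in dermal fibroblast-like 2. Pre-osteoblast-like cells were at 4500 CPM, 8_1 at 3591 CPM and cluster 0 at 1267 CPM. Against the reference at 3719 CPM the ratio was 5.04 (4.96 to 5.12) in osteoblast-like and 4.42 (4.29 to 4.56) in ligamentocyte-like cells. Within the *trps1:eGFP*-enriched library alone the osteoblast-like ratio was 5.12.

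In the osteoblast-like cluster *sparc* was 16307 CPM in the *sox10:DsRed*-enriched and 19078 CPM in the *trps1:eGFP*-enriched library. Detection alone did not mark a skeletal cell, since *sparc* was found in 97.5% of epithelial-like cells (3383 CPM) and 58.3% of glia-like cells (775 CPM), with median depths of 5912 and 1440 UMIs.

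**Figure D4:**
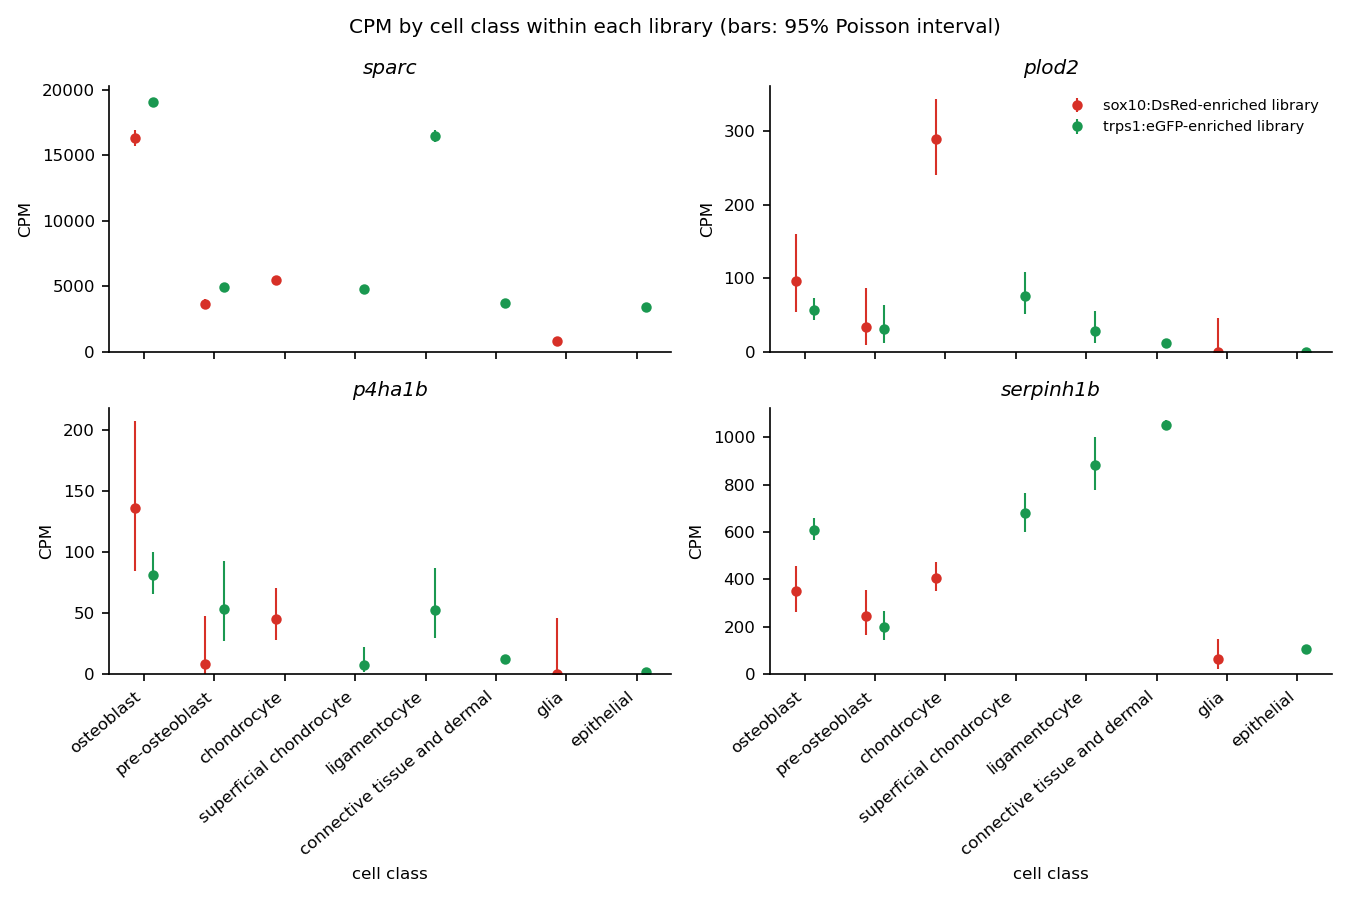
*sparc*, *plod2*, *p4ha1b* and *serpinh1b* in CPM by cell class, shown separately for each library with at least 10 cells of the class (bars, 95% counting intervals). Osteoblast-like cells are above pre-osteoblast-like cells for *sparc* in both libraries (16307 over 3692 CPM and 19078 over 4921 CPM), and the chondrocyte-like class has a value only in the *sox10:DsRed*-enriched library.

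The 10 genes were then counted in each comparison. A feature was called when its CPM, with 10 CPM added to both sides, differed at least 2-fold, among features with at least 10 UMIs in both classes together. The first 5 comparisons share the same reference cells. Since the genes were chosen for their function with results of these data known, the counts describe them and are set beside the share of all features called.

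In osteoblast-like cells, 4 of the 10 genes were higher than in the reference (*serpinh1a*, *p4ha1b*, *plod2*, *sparc*) and 1 was lower (*pcolcea*), where 1.80% of all features were higher and 8.28% lower. The median log2 ratio of the 10 was 0.61, against -0.20 over all features. Of 65 measured genes on a list of other collagen biosynthesis genes, 8 were higher and 9 lower, with a median of 0.04. The higher ones included *loxa*, a lysyl oxidase gene (568 against 80.0 CPM, 7.10-fold), *loxl4* (126 against 1.52 CPM) and *kdelr3*, which encodes a receptor returning chaperones to the endoplasmic reticulum (111 against 25.5 CPM, 4.36-fold). The lower ones included *smoc1*, a relative of *sparc* (7.92 against 219 CPM).

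In pre-osteoblast-like cells 1 was higher (*p4ha1b*) and 2 were lower (*serpinh1b*, 4.88-fold, and *pcolcea*), where 3.57% and 8.66% of features were. *sparc* was 1.21-fold the reference there. The median was 0.26 for the 10 genes and -0.18 over all features, and 7 of 65 listed genes were higher and 8 lower. Under 9 other settings 2 or 3 of the 10 genes were called higher in place of 1.

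In ligamentocyte-like cells 4 were higher (*p4ha1b*, *plod1a*, *fkbp10b*, *sparc*) and 0 lower, where 2.87% and 3.62% of features were. The median was 0.81, against -0.13 over all features. *serpinh1b* at 0.841 times (0.739 to 0.953) and *pcolcea* at 0.666 times (0.565 to 0.779) the reference were under it by less than 2-fold. In 5 other clusterings the ligamentocyte-like cluster was wider, at 347 to 441 cells, and *plod1a* (log2 0.72 to 0.85) and *fkbp10b* (0.73 to 0.91) then fell under 2-fold, while *p4ha1b* and *sparc* stayed over it. Of 66 listed genes 13 were higher and 0 lower, with a median of 0.33, among them *loxa* (747 CPM, 9.34-fold), *loxl2b* (352 CPM, 6.60-fold) and *kdelr3* (152 CPM, 5.95-fold).

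In superficial chondrocyte-like cells 1 was higher (*plod2*) and 1 lower (*pcolcea*), where 5.92% and 4.52% of features were, so that the count was near the share of all features. The median was -0.03 and that of all features -0.02. Of 65 listed genes 4 were higher and 5 lower.

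In chondrocyte-like cells 3 were higher (*p4ha1b*, *plod2*, *crtap*) and 2 lower (*serpinh1b*, *pcolcea*), where 7.88% and 7.94% of features were, and *p4ha1b* stood at 44.1 CPM (3.55-fold, 2.11 to 5.68). Of the 20 *p4ha1b* UMIs, 16 were in 8_0 and 4 in 8_1, where it was 17.7 CPM (4.82 to 45.3). Class and library cannot be told apart in any of these values. Between the libraries, osteoblast-like cells differed in the same direction for *crtap* (194 against 99.3 CPM) and *p4ha1b* (136 against 81.2 CPM). They also did for *plod2* (97.1 against 56.9 CPM) and *serpinh1b* (349.7 against 610.3 CPM). For *pcolcea* they differed in the other direction (104 against 78.5 CPM, 16 and 87 UMIs). The *sox10:DsRed*-enriched library gave 15 of these 192 cells, so its values rest on few cells. For *p4ha1b*, *plod2* and *pcolcea* the intervals of the libraries overlapped. The medians were 0.61 for the 10 genes and -0.12 over all features. Of 66 listed genes 14 were higher and 7 lower. The higher ones included *loxl3b* (99.3 CPM, 7.82-fold), and the lower ones *loxa* (4.41 CPM, 18.1-fold lower), *fkbp7* (6.62 CPM, 14.1-fold lower) and *hspa5*, the gene of the chaperone BiP (565 against 1513 CPM). A count of 3 stands at 6.62 CPM in this class, so *loxa* and *fkbp7* rest on at most that many UMIs and their folds are rough. Of the listed lysyl oxidase genes, *loxl3b*, *loxl4* and *loxl5a* were called higher. *loxa*, *loxl1* and *loxl2b* were called lower.

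**Figure D5:**
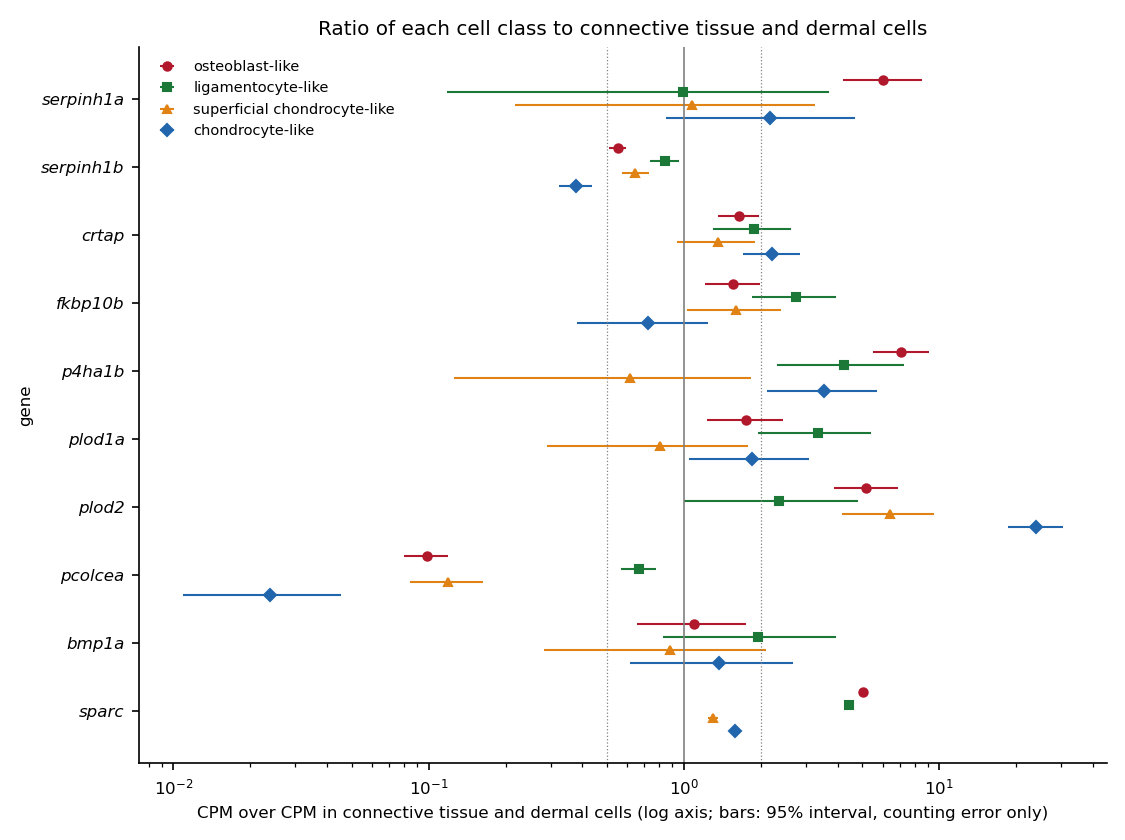
Ratio of CPM in osteoblast-like, ligamentocyte-like, superficial chondrocyte-like and chondrocyte-like cells to CPM in connective tissue and dermal cells for each of the 10 genes (log axis, bars 95% counting intervals, dotted lines at 2-fold). *plod2* is at 23.9 for chondrocyte-like cells and *pcolcea* lies below 1 in all 4 classes.

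Within the *sox10:DsRed*-enriched library, chondrocyte-like cells had 1 of the genes higher than osteoblast lineage-like cells (*plod2*) and 2 lower (*serpinh1a* and *pcolcea*), where 35.3% of features were higher and 8.69% lower. *serpinh1a* was 15.9 against 62.5 CPM (3.92-fold lower) and *pcolcea* 18.2 against 121 CPM (6.66-fold lower). *sparc*, at 5469 against 10854 CPM, was 0.504 times as high, just inside the 2-fold line. *serpinh1b* was 408 against 305 CPM, *crtap* 148 against 136 CPM and *p4ha1b* 45.6 against 80.9 CPM. The medians were -0.57 for the 10 genes and 0.57 over all features.

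Osteoblast-like cells had 4 genes higher than pre-osteoblast-like cells (*sparc*, *serpinh1b*, *p4ha1b*, *fkbp10b*) and 0 lower, where 4.43% and 9.52% of features were. The ratios were 4.16 (3.96 to 4.39) for *sparc*, 2.68 (2.11 to 3.45) for *serpinh1b*, 2.65 (1.28 to 6.36) for *fkbp10b* and 2.32 for *p4ha1b* (111 against 13 UMIs). The median log2 ratio was 0.74, against -0.18 over all features. Both libraries held both classes, and *sparc* differed alike in each, 4.42-fold in the *sox10:DsRed*-enriched library (15 and 23 cells) and 3.88-fold in the *trps1:eGFP*-enriched library (177 and 34 cells).

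For the other 3 the ratio differed in size between the libraries, but the intervals overlapped and the difference was not tested. *serpinh1b* was 1.42-fold higher (0.887 to 2.31) in the *sox10:DsRed*-enriched and 3.06-fold (2.26 to 4.23) in the *trps1:eGFP*-enriched library. *p4ha1b* had 21 UMIs against 1 (136 and 8.51 CPM, interval of the ratio 2.57 to 661) in the first and a ratio of 1.53 (0.833 to 3.07) in the second. *fkbp10b* had 11 UMIs against 1 (71.2 and 8.51 CPM, interval of the ratio 1.22 to 360) in the first and 1.95 (0.896 to 5.03) in the second. With the *trps1:eGFP*-enriched library alone, and with the mean of per-cell CPM, 2 of the genes were called higher in place of 4. With the *sox10:DsRed*-enriched library alone 6 were (*serpinh1a*, *p4ha1b*, *plod2*, *crtap*, *fkbp10b* and *sparc*), *crtap* at 3.26-fold (1.40 to 8.80) there and 1.07-fold (0.665 to 1.79) in the other library.

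The 2 chondrocyte-like clusters were compared after their levels had been seen. *sparc* was 2.28-fold higher (2.09 to 2.47) and *p4ha1b* 3.98-fold higher (1.28 to 16.4; 16 against 4 UMIs) in 8_0, the cluster with more *ihha*, and 0 of 7 genes with enough UMIs were lower, where 12.8% of features were higher and 4.73% lower. *plod2* (0.980, 0.683 to 1.41) and *crtap* (0.995) were at the same level within counting error, and *serpinh1b* was 0.633 times as high (0.462 to 0.862). In the *sox10:DsRed*-enriched library alone the ratios were 2.08 for *sparc* (7463 over 3591 CPM) and 4.25 for *p4ha1b*. With the mean of per-cell CPM in place of pooled UMIs, 1 gene was called higher in place of 2. The medians were -0.01 for the 7 genes and 0.10 over all features.

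Within cells, at 1000 UMIs each, a mean of 2.09 of the 10 genes had a UMI in ligamentocyte-like cells, 1.82 in the reference, 1.77 in osteoblast-like, 1.61 in chondrocyte-like, 1.07 in epithelial-like and 0.543 in glia-like cells. Without thinning it was 3.72 in osteoblast-like and 3.55 in ligamentocyte-like cells. The glia-like cells, 45 of 48 from the *sox10:DsRed*-enriched library, had 0 UMIs for *serpinh1a*, *p4ha1b*, *plod2*, *crtap* and *fkbp10b*, which allows up to 34.2 CPM for each. *serpinh1b* was found in 80.5% of cluster 6 cells and 81.3% of osteoblast-like cells, but thinned to 1000 UMIs in 59.1% and 40.6%. The shares without and with thinning were 67.7% and 42.4% of reference cells, and 35.5% and 8.47% of epithelial-like cells.

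Several genes shared their order of clusters. Over the 17 clusters, Pearson's r of log2 of CPM plus 10 with summed fibrillar collagen was 0.93 for *sparc*, 0.84 for *fkbp10b* and 0.82 for *p4ha1b*. It was 0.77 for *crtap*, 0.66 for *serpinh1a* and 0.64 for *plod1a*. Lower values were found for *serpinh1b* (0.46), *plod2* (0.36), *bmp1a* (0.30) and *pcolcea* (0.17). Between *p4ha1b* and *sparc* r was 0.88. *serpinh1b* paired with *pcolcea* (0.66), and *pcolcea* with *plod2* in the opposite sense (-0.57). Clusters share libraries and depth, and collagen genes were not left out of the clustering, so these are descriptions with no p.

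Among 4170 other genes, the closest in this measure was *kdelr3* for *sparc* (0.89), *entpd5a* for *p4ha1b* (0.83), *fkbp9* for *fkbp10b* (0.89), *cxcl12a* for *pcolcea* (0.95), *foxc1b* for *plod2* (0.93) and *krt91* for *serpinh1b* (0.92). For the others it was *cs* for *crtap* (0.93), *coch* for *bmp1a* (0.85), *gas1b* for *plod1a* (0.78) and *si:cabz01100188.1* for *serpinh1a* (0.83). Each is the highest r of 4170 candidates over only 17 clusters, so the choice itself makes r high and shows no link between the genes. The sum of the 10 genes was closest to *pabpc1b* (0.92), *kdelr3* (0.91), *fkbp9* (0.91), *serpinf1* (0.90) and *rcn3* (0.89). Most UMIs of that sum were those of *sparc*, so these neighbours need not describe the other genes.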

How the data were processed

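Per the submitters' processing notes, Cell Ranger 3.0.0 and the GRCz11 build were used, and the deposited matrices hold the authors' raw UMI counts per feature and barcode, without normalization. In Seurat 5.3.0 (R 4.3.3), barcodes with 500 to 2000 genes and at most 5% mitochondrial UMIs were clustered with 50 principal components, 38 dimensions and a resolution of 0.9. Osteoblast and chondrocyte cells were subclustered at 0.2 and 0.5. The 2000 variable features lost the 10 genes and the listed pathway genes among them. A name required at least 3 markers in at least 5% of cells and 2-fold higher.

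UMIs were summed per class and intervals computed with scipy 1.17.1: exact Poisson for CPM, Clopper-Pearson for shares, exact conditional for ratios. With 1 library per sort, the replicate is the library, and no p-value was computed. A count of 0 was given a limit of 3 counts, which is below the upper end of the exact Poisson interval (34.2 against 42.05 CPM in glia-like cells). Scrublet in scanpy 1.11.5 marked almost no barcode, so the limit on genes served against doublets. All 10 genes are named, and so are the genes most alike by Pearson's r among those with at least 200 UMIs. Of the other listed genes, only some at 2-fold or in a member's complex or family are named. An unnamed gene may also have differed. The 10 genes, the lists and the naming limits were chosen with earlier results of these data known. The calculations were tested on simulated data. Sequences and coordinates were not used here.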

Additional observations from a re-analysis of the deposited data

Results flagged for a closer look

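The log2 ratio (10 CPM added) of osteoblast-like to pre-osteoblast-like cells had opposite signs in the libraries for 2 genes. *plod1a* stood at -0.29 in the *sox10:DsRed*-enriched library (25.9 against 34.0 CPM, 4 UMIs each) and 0.11 in the *trps1:eGFP*-enriched library (34.3 against 31.0 CPM). *pcolcea* stood at -0.44 (104 against 145 CPM, 16 and 17 UMIs) and 0.83 (78.5 against 39.9 CPM, 87 and 9 UMIs). Neither difference was tested.

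Epithelial-like and endothelial-like cells, set apart from the clusters, also held UMIs of these genes above 3 counts. In epithelial-like cells *sparc* was 3383 CPM, *serpinh1b* 104 CPM, *crtap* 34.7 CPM and *pcolcea* 31.5 CPM. The lower values there were 19.9 CPM for *fkbp10b*, 10.2 CPM for *serpinh1a*, 7.87 CPM for *bmp1a* and 3.70 CPM for *plod1a*. In endothelial-like cells *sparc* was 399 CPM and *serpinh1b* 209.7 CPM.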

How the results depend on the processing

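Of 202 counts of called genes under other settings, 190 were within 1.5 times the reported count and 0 reversed. For pre-osteoblast-like cells against the reference the count of higher genes went from 1 to 3 (resolution 0.5, 20 dimensions, 200 genes, 10% mitochondrial UMIs, all variable features, 1 CPM added) or 2 (4000 genes, mean of per-cell CPM, without shared barcodes). For osteoblast-like against pre-osteoblast-like cells it went from 4 to 2 with the mean of per-cell CPM and with the *trps1:eGFP*-enriched library alone, and for 8_0 against 8_1 from 2 to 1 with the mean of per-cell CPM. Of 28 single calls, 6 fell under 2-fold somewhere: *fkbp10b* (log2 0.73 to 1.44) and *plod1a* (0.72 to 1.69) in ligamentocyte-like cells, *fkbp10b* (0.78 to 2.13), *p4ha1b* (0.53 to 2.98) and *serpinh1b* (0.49 to 1.57) in osteoblast-like against pre-osteoblast-like cells, and *sparc* (0.98 to 1.43) in 8_0 against 8_1. The cause was not tested. The ligamentocyte-like cluster held 74 cells here and 347 to 441 in 5 other clusterings, and few UMIs stand behind most of its values. Of 20 shares of cells, 19 moved with depth or a threshold of 2 UMIs. The settings not run were the *sox10:DsRed*-enriched library alone against the reference, the *trps1:eGFP*-enriched library alone for chondrocyte-like cells, and 8_0 against 8_1 at 20 dimensions or 200 genes. No paired analysis was possible because each sort gave 1 library.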
